A study of Mus musculus with 6 samples.

Results

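Intermediate filament genes of glia and neurons were followed in RNA from 6 libraries of the APP/PS1 mouse, a line that carries mutant human amyloid precursor protein and presenilin transgenes and forms amyloid plaques. The 9 genes were Gfap, Vim, Nes, Synm, Nefl, Nefm, Nefh, Ina and Lmna, taken by symbol from the 36210 gene rows of the deposited table; each had 1 row, and all 9 were among the 20363 genes that passed the filter on low counts. Every mouse was 8 months old and every group carried the APP/PS1 transgenes, so no comparison with mice free of the transgenes was made. 3 libraries came from animals that received AVE0991, a compound that mimics angiotensin-(1-7), by intraperitoneal injection at 10 mg per kg every day over 30 days, and 3 from animals injected with 0.9% saline, the vehicle, on the same schedule. The labels do not say how astrocytes were isolated, or whether 1 library stands for 1 mouse, so the p-values below speak to library-to-library spread alone, which may be technical.

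Intermediate filaments are rope-like polymers that give cells mechanical strength, and their make-up differs by cell type. Astrocytes build theirs from Gfap, with Vim, Synm and, in immature or reactive cells, Nes. Neurons build neurofilaments from a light, a middle and a heavy chain encoded by Nefl, Nefm and Nefh, together with alpha-internexin from Ina. The long tails of the middle and heavy chains are heavily phosphorylated and set axon calibre, above all in large myelinated axons. Lmna encodes lamins A and C of the nuclear lamina, which most cell types carry. Gfap and Vim are widely used as markers of reactive astrocytes around amyloid plaques.

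The libraries held 44583274 to 50066615 estimated counts on gene rows. The labels name astrocytes, but transcripts of other brain cells were abundant: the 10 neuron markers summed to 4940 to 5908 CPM (counts scaled to a common library size) per library and the 8 mature oligodendrocyte markers to 3704 to 11952 CPM, beside 8430 to 11936 CPM for the 12 astrocyte markers. None of these markers was at 0 in any library. Regional genes differed between libraries, also within the vehicle group, where 7 forebrain excitatory neuron markers summed to 2835 to 5036 CPM. The 7 cerebellar granule cell markers (Gabra6, Cbln1, Cbln3, Fat2, Neurod1, Zic1 and En2) summed to 1917 and 1896 CPM in AVE0991 replicates 2 and 3, against 149 to 171 CPM in the other 4 libraries. The 6 striatal neuron markers summed to 929.7 CPM in AVE0991 replicate 1, against 303 to 669.7 CPM in vehicle libraries and 279 and 290.4 CPM in AVE0991 replicates 2 and 3. AVE0991 replicate 2 also stood apart in a list of 10 hindbrain and spinal neuron genes, chosen after the values were seen. Its 5 tested members (Slc6a5, Glra1, Hoxb3, Hoxb5 and Tph2) summed to 373 CPM there and to 5.82 to 40.3 CPM in the other 5 libraries.

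The order of the genes by level per transcript length is given in FPKM, the authors' deposited values scaled by gene length and library size. Nefl and Gfap led, with means over the 6 libraries of 188 FPKM (range 133 to 285) and 182 FPKM (134 to 212). Nefl was the higher in 2 of 6 libraries, so these neighbours were not separated. By FPKM Nefl ranked 251st and Gfap 260th among the 20363 genes tested. Ina came next at 73.4 FPKM (59.1 to 106), below Gfap in all 6 libraries. Vim at 47.4 FPKM (19.6 to 106.0), Nefm at 46.7 FPKM (24.4 to 112) and Nefh at 33.3 FPKM (13.9 to 90.1) had overlapping ranges. Nefm stood above Nefh in 6 of 6 libraries, but above Vim in 5. Lmna was level at 20.9 FPKM (18.4 to 23.1), followed without overlap by Synm at 6.36 FPKM (5.1 to 7.41) and Nes at 0.97 FPKM (0.69 to 1.24).

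Between the groups, none of the 9 genes passed edgeR's quasi-likelihood test at a Benjamini-Hochberg adjusted p under 0.05 over all genes (0.864% of all genes passed, 0.0344% higher and 0.83% lower). At an unadjusted edgeR p under 0.05 there were 2 genes, Vim and Gfap, beside 23.6% of all genes. DESeq2 called 1 of the 9, Vim, where it called 12.5% of all genes, 5.39% higher, and limma-voom and limma on FPKM called 0. Of the 9 log2 fold changes 7 were above 0 and 2 below, with a median of 0.25 against -0.01 over all genes tested. By CPM, Gfap was the 1 gene of the 9 whose groups did not overlap, with AVE0991 above. Over all genes 30.6% did not overlap, 14.3% with AVE0991 above. By FPKM the groups of Gfap did overlap. In bulk RNA such as this, a different number of cells of a type and a different amount of RNA per cell cannot be told apart.

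**Figure D1:**
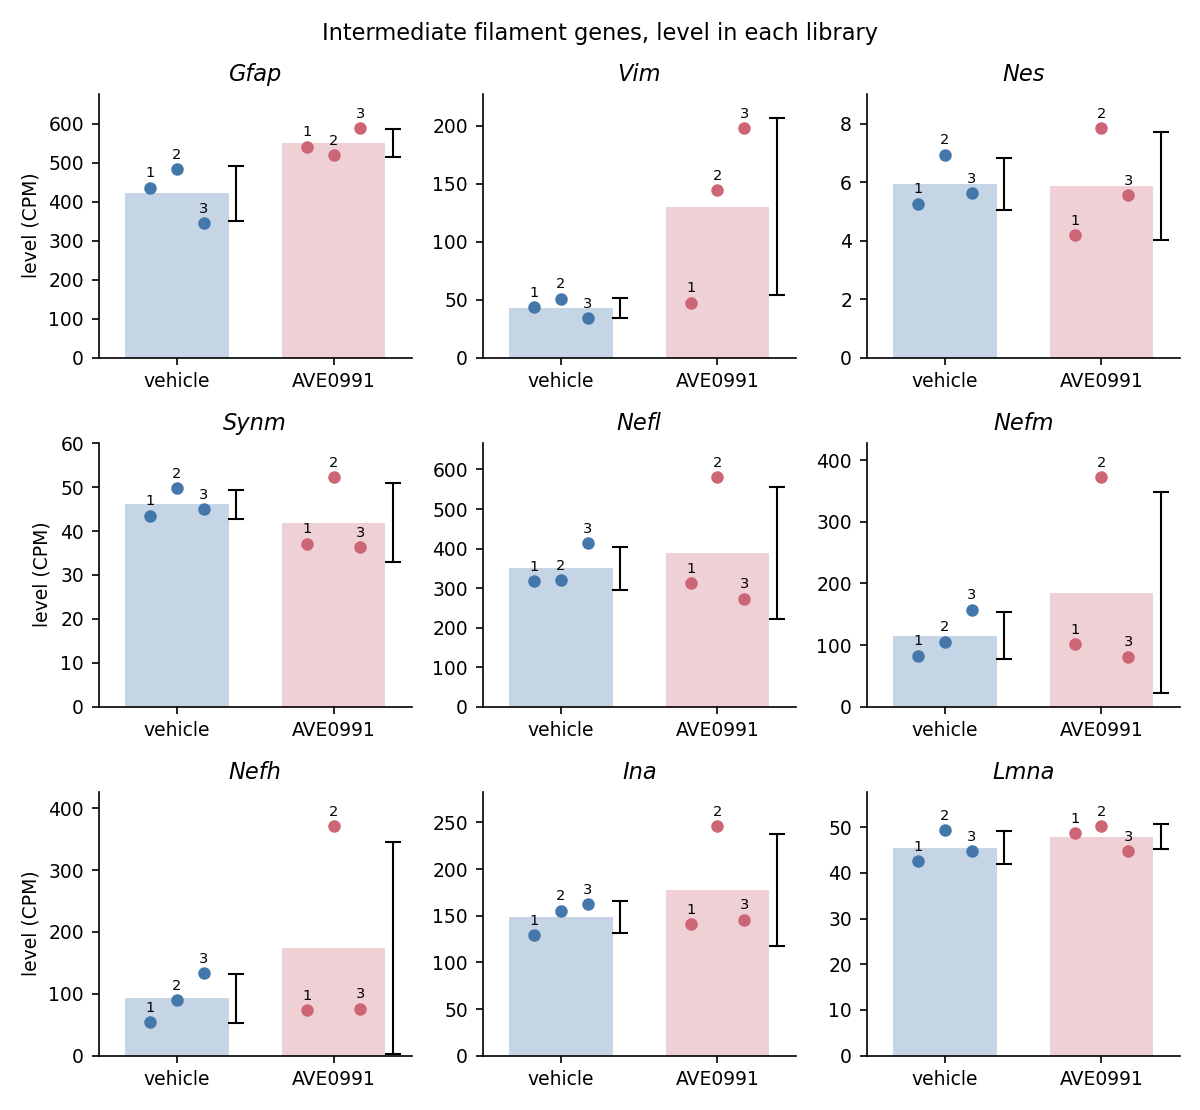
Level of each of the 9 genes in CPM (y axis, linear from 0) in the vehicle and AVE0991 groups; points are libraries with their replicate number, bars are group means and the line at the side of each bar is the SD (n = 3). Nefl, Nefm, Nefh and Ina were highest in AVE0991 replicate 2, and Vim was high in AVE0991 replicates 2 and 3.

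Gfap, the main filament protein of mature astrocytes, stood at 436, 484 and 346 CPM in vehicle replicates 1, 2 and 3 and at 541, 519 and 589 CPM in AVE0991 replicates 1, 2 and 3. By CPM all 3 AVE0991 libraries lay above all 3 vehicle libraries, and the vehicle libraries spread more widely. By FPKM the groups overlapped, with AVE0991 replicate 2 at 187 FPKM and vehicle replicate 2 at 191 FPKM. The ratio to the vehicle mean was 1.28, 1.23 and 1.40 in AVE0991 replicates 1, 2 and 3. Replicates 2 and 3 were the libraries with high cerebellar markers and replicate 1 the one with the highest striatal sum, and the part of these in the Gfap values was not tested. The log2 fold change was 0.38 (SE 0.15, 95% interval 0.03 to 0.73, edgeR adjusted p = 0.184). It was 0.37 without AVE0991 replicates 2 and 3, a fit that rests on a lone AVE0991 library. With 1 library left out it ran from 0.26, without vehicle replicate 3, to 0.49, without vehicle replicate 2. After a correction for transcript GC content it was 0.21 (edgeR adjusted p = 0.537).

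Gfap was also set against other astrocyte genes. The 12 markers (Aldh1l1, Aqp4, Slc1a2, Slc1a3, Gja1, Gjb6, S100b, Aldoc, Fgfr3, Sox9, Atp1b2 and Glul) stood at 0.63 in the median of their log2 fold changes, and 11 of 12 lay above 0. Relative to the vehicle mean, their median log2 CPM was higher by 0.25 in AVE0991 replicate 1, by 0.79 in replicate 2 and by 0.70 in replicate 3. By edgeR 0 of the 12 passed, 8 were higher at an unadjusted p under 0.05 (10.9% of all genes were), DESeq2 called 7 higher (5.39% of all genes) and limma-voom 0. Gfap minus the mean log2 CPM of these markers was 0.58, 0.77 and 0.10 in vehicle replicates 1, 2 and 3 and 0.70, 0.03 and 0.34 in AVE0991 replicates 1, 2 and 3. The groups overlapped, and the means were 0.48 ± 0.34 and 0.35 ± 0.33 (SD, n = 3 each; difference -0.13, exact two-sided permutation p = 0.7). With 3 libraries against 3 this test cannot give a p below 0.1. Leaving out vehicle replicate 2 gave a difference of 0.01, and leaving out AVE0991 replicate 2 gave 0.03, so its direction rested on single libraries.

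Vim encodes vimentin, a filament protein of immature and reactive astrocytes, of vessel wall, ependymal and meningeal cells and, in the cerebellum, of Bergmann glia. It stood at 43.7, 50.8 and 34.0 CPM in vehicle libraries and at 47.4, 144 and 198 CPM in AVE0991 replicates 1, 2 and 3. AVE0991 replicate 1 lay inside the vehicle range, and replicates 2 and 3 were 3.37 and 4.62 times the vehicle mean. The group log2 fold change was 1.60 (SE 0.48, 95% interval 0.45 to 2.75, edgeR adjusted p = 0.132). With AVE0991 replicate 1 left out, edgeR called Vim higher (2.00, SE 0.21, adjusted p = 0.00711), as it did 6.63% of all genes. Without AVE0991 replicates 2 and 3, a fit that rests on a lone AVE0991 library, the value was 0.16. DESeq2 called Vim higher with a log2 fold change of 1.61 (adjusted p = 0.00657). In the authors' deposited table Vim had a log2 fold change of 1.61 and a q-value of 0.00861, the 1 gene of the 9 with a q-value under 0.05, where 4.71% of all gene rows had one.

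The 2 libraries with high Vim were those with high cerebellar genes. The 4 Purkinje cell markers summed to 2419 and 3633 CPM in AVE0991 replicates 2 and 3, against 745 to 1036 CPM in the other 4 libraries. Most of each sum was Itpr1, at 2025 and 3027 CPM against 669 to 960 CPM. Pcp2 stood at 89.4 and 155 CPM against 0.797 to 5.33 CPM, and Car8 at 217 and 301 CPM against 17.8 to 27.4 CPM. Calb1 stood at 87.9 and 149 CPM against 55.7 to 60.5 CPM. All 7 granule cell markers had a log2 fold change above 0, with a median of 3.04. Sums of vessel wall, ependymal and choroid plexus markers in these 2 libraries stood within or near the vehicle range. The 10 endothelial markers summed to 148 and 92.7 CPM in AVE0991 replicates 2 and 3 against 104 to 173 CPM in vehicle libraries, the 9 mural cell markers to 225 and 157 CPM against 129.9 to 199 CPM, and the 5 ependymal markers to 32.5 and 21.5 CPM against 13.9 to 31.0 CPM. The 9 choroid plexus markers reached 565 and 390 CPM, inside the vehicle range of 142 to 1422 CPM. The 6 fibroblast markers were higher in both, at 152 and 149 CPM against 76.9 to 110.1 CPM in vehicle libraries and 97.2 CPM in AVE0991 replicate 1. No marker in these lists was at 0 in any library. The part of regional composition in the Vim difference was not tested.

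**Figure D2:**
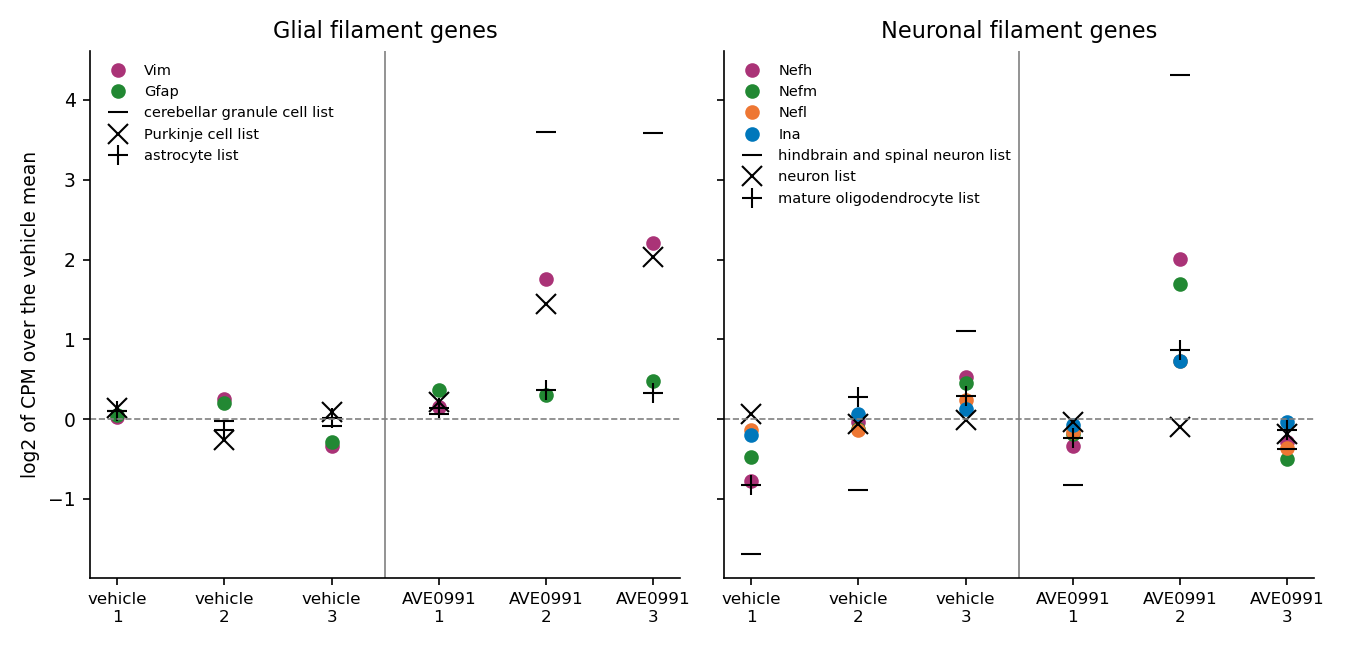
Log2 ratio of CPM to the vehicle mean (y axis) in each library (x axis, group and replicate), for filament genes (coloured points) and for the summed CPM of marker lists (black symbols). Vim stood high in the 2 libraries where granule cell and Purkinje cell markers were high, and Nefh and Nefm in the library where the hindbrain genes were high. The hindbrain list was chosen after the values were seen.

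Per length, the ratio of Vim to Gfap was alike in 4 libraries. The ratio of Vim to Gfap FPKM was 0.149, 0.156 and 0.146 in vehicle replicates 1, 2 and 3 and 0.131 in AVE0991 replicate 1. It was 0.414 and 0.50 in AVE0991 replicates 2 and 3. Gfap stood at 187 and 212 FPKM in these 2 libraries, against a vehicle mean of 164 FPKM. Synm, by contrast, was lower relative to Gfap in every AVE0991 library by FPKM. Its ratio was 0.0263, 0.0379 and 0.0241 in replicates 1, 2 and 3 against 0.0395, 0.0389 and 0.0491 in vehicle libraries, a narrow gap. By CPM the ratios of the groups overlapped. Synm and Gfap stood at 52.3 and 519 CPM in AVE0991 replicate 2, a higher ratio than the 43.5 and 436 CPM of vehicle replicate 1. The higher Gfap values of AVE0991 libraries enter this ratio too. The genes whose pattern over the 6 libraries was most like that of Vim, by the root mean square difference of centred log2 CPM among 9747 candidates, were Dusp5 (0.11), Dnah11 (0.14) and Tmem266 (0.16), where the median over all candidates was 0.94. Dusp5, a phosphatase of MAP kinases, stood at 8.65, 23.1 and 32.1 CPM in AVE0991 replicates 1, 2 and 3 and at 5.46 to 8.53 CPM in vehicle libraries. The genes most like Gfap were Stom, Sdhaf1 and Prelp, at 0.07 to 0.08 with a median over candidates of 0.29.

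Because Gfap and Vim had unlike patterns here, their promoters are shown with that of Ina for contrast. RefSeq promoter entries on GRCm38.p6 matched 6 of the 9 genes; Nefl, Nefm and Nefh were not matched. Capitals mark matches, on either strand, to the letters TATAAA of a TATA box, GGGCGG of a GC box, CCAAT of the box of that name, TGANTCA of an AP-1 element and TTCNNNGAA of a STAT element. No match overlapped another. The 250 bases before the annotated start, 5′ to 3′ on the gene's strand, were at chr11:102897201-102897450 on the minus strand for Gfap, at chr2:13574061-13574310 on the plus strand for Vim and at chr19:47014431-47014680 on the plus strand for Ina.
Gfap: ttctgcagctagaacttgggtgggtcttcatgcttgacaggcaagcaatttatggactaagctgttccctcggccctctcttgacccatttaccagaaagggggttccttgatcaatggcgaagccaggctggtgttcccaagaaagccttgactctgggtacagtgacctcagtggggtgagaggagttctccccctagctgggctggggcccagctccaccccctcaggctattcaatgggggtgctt
Vim: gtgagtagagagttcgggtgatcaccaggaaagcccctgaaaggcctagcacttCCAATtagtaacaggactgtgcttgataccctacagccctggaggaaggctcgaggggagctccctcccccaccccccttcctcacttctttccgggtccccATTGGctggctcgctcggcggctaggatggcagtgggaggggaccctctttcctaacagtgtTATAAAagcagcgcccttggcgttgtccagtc
Ina: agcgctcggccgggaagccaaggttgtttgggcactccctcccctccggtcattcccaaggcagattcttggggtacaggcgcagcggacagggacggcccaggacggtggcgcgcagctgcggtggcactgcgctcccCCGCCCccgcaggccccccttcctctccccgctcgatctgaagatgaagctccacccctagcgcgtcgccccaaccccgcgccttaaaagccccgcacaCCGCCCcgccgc
Vim held a TATA box starting 32 bases before the start and CCAAT boxes, read on either strand, 94 and 196 bases before it. In 32851 promoter entries of the same length, 12.4% held that TATA box and 33.8% a CCAAT box. Ina held 2 GC boxes, 12 and 111 bases before the start, as 32.7% of entries held at least one, and no TATA box of these letters. The Gfap window held none of the 5 motifs; AP-1 and STAT elements were found in 6.75% and 7.02% of all entries. GC content was 55.6% for Gfap, 58.4% for Vim and 70.8% for Ina, with 2, 8 and 25 CpG dinucleotides. These are matches of letters and say nothing of what binds there.

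Nes and Synm, large filament proteins that copolymerize with vimentin, were the lowest in level per transcript length. Nes stood at 5.27, 6.95 and 5.62 CPM in vehicle replicates 1, 2 and 3 and at 4.19, 7.86 and 5.56 CPM in AVE0991 replicates 1, 2 and 3. Its groups overlapped throughout (log2 fold change -0.02, SE 0.25, edgeR adjusted p = 0.973). Synm, which encodes synemin, stood at 43.5, 49.8 and 45.0 CPM in vehicle libraries and at 37.1, 52.3 and 36.3 CPM in AVE0991 libraries. AVE0991 replicates 1 and 3 lay below the vehicle range and replicate 2 above it (-0.14, SE 0.16, adjusted p = 0.641). Without AVE0991 replicate 2 the value of Synm was -0.32 (adjusted p = 0.218), and that of Nes -0.28 (adjusted p = 0.51). The 9 markers of neural progenitors, cells known for Nes, gave a median log2 fold change of -0.43, with 2 of 9 above 0. By edgeR 0 of them passed, with 0 higher and 2 lower at an unadjusted p under 0.05. Over all genes 23.6% were under it in either direction, 10.9% of all genes being higher. DESeq2 called Top2a and Fabp7 lower, where it called 1335 of 18764 genes lower, and limma-voom called 0.

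The neurofilament genes were set apart by 1 library. Nefl, the light chain on which the others assemble, stood at 317, 319 and 413 CPM in vehicle replicates 1, 2 and 3 and at 312, 581 and 273 CPM in AVE0991 replicates 1, 2 and 3. Nefm, the middle chain, stood at 82.5, 105 and 157 CPM in vehicle libraries and at 101, 373 and 81.4 CPM in AVE0991 libraries. Nefh, the heavy chain, stood at 54.1, 89.8 and 133 CPM in vehicle libraries and at 73.5, 371 and 75.9 CPM in AVE0991 libraries. For each of the 3 genes AVE0991 replicate 2 was the highest of the 6 libraries, and AVE0991 replicates 1 and 3 lay at or below the middle of the vehicle values.

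AVE0991 replicate 2 lay 1.78 times above the mean of the other 5 libraries for Nefl, 3.53 times for Nefm and 4.35 times for Nefh. Ina, whose product joins the triplet in central neurons, stood at 129, 155 and 162 CPM in vehicle libraries and at 141, 246 and 146 CPM in AVE0991 libraries, where replicate 2 was 1.68 times above the other 5. The group log2 fold changes were 0.15 for Nefl (SE 0.30), 0.69 for Nefm (SE 0.60), 0.91 for Nefh (SE 0.69) and 0.25 for Ina (SE 0.23), with edgeR adjusted p of 0.789, 0.519, 0.461 and 0.543. The interval for Nefh ran from -0.74 to 2.56. Without AVE0991 replicate 2 the values were -0.25, -0.33, -0.30 and -0.05 in the same order, with adjusted p of 0.415 to 0.849, so the direction of all 4 rested on that library.

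**Figure D3:**
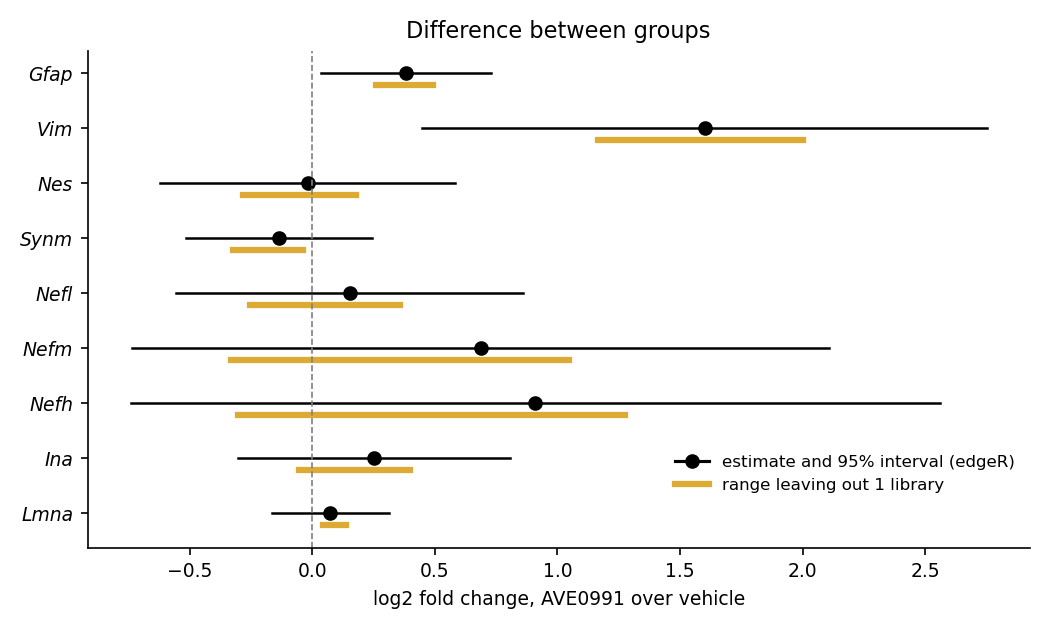
Log2 fold change of AVE0991 over vehicle (x axis) for the 9 genes (y axis), with the edgeR 95% interval in black and, in yellow, the range of estimates with any 1 of the 6 libraries left out. The intervals of Vim and Gfap lay above 0 before adjustment over all genes, and the yellow ranges of Nefl, Nefm, Nefh, Ina and Nes crossed 0.

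The make-up of the triplet differed between libraries as well as its sum. Nefh made up 6.82%, 10.4% and 11.5% of the summed triplet FPKM in vehicle replicates 1, 2 and 3 and 8.87%, 18.5% and 10.4% in AVE0991 replicates 1, 2 and 3. Nefl made up 71.7% to 80.3% in 5 libraries and 58.4% in AVE0991 replicate 2. The ratio of Nefh to Nefl FPKM ran from 0.0849 to 0.160 in vehicle libraries, stood at 0.117 and 0.138 in AVE0991 replicates 1 and 3, and was 0.317 in replicate 2. The ratio of Ina to Nefl was even, at 0.347 to 0.429 in vehicle and 0.374 to 0.471 in AVE0991 libraries. Vehicle libraries also spread in level: by CPM the highest of them was 2.46 times the lowest for Nefh, 1.90 times for Nefm and 1.30 times for Nefl.

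**Figure D4:**
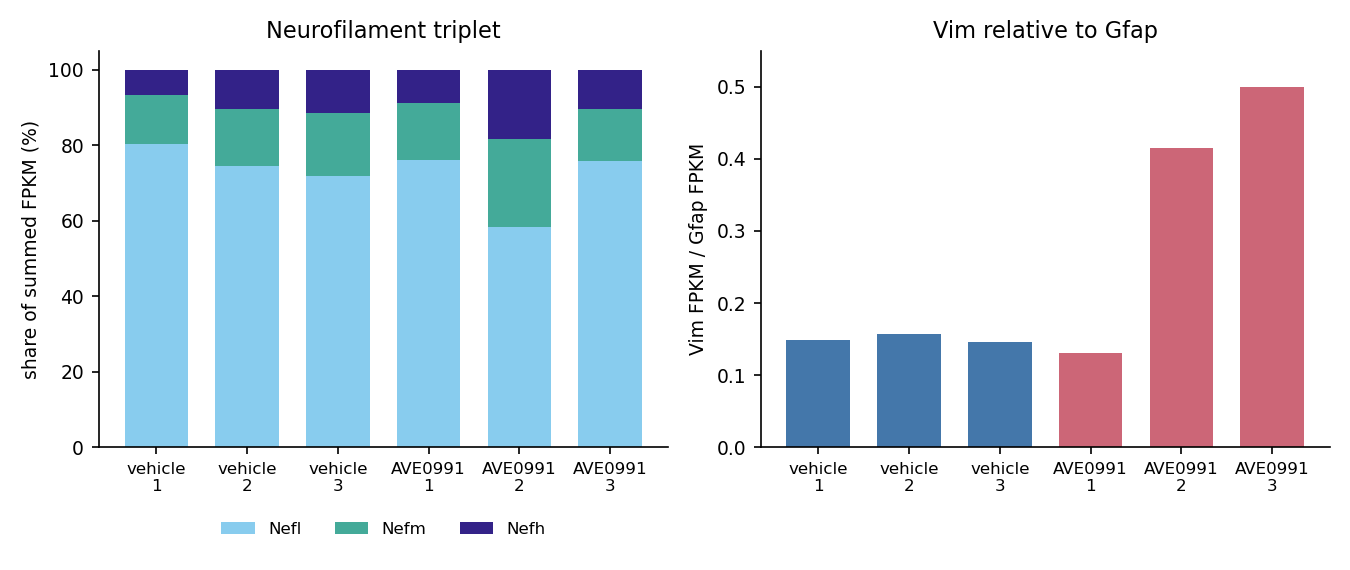
Left, share of Nefl, Nefm and Nefh in their summed FPKM (y axis, percent) in each library (x axis); right, ratio of Vim to Gfap FPKM in each library. Nefh took 18.5% in AVE0991 replicate 2 and at most 11.5% in the other libraries, and the Vim to Gfap ratio was 0.414 and 0.50 in AVE0991 replicates 2 and 3.

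The sum of general neuron markers did not show the pattern of the triplet, and single markers were mixed. The 10 markers (Rbfox3, Snap25, Syt1, Map2, Tubb3, Stmn2, Eno2, Elavl3, Elavl4 and Syp) summed to 5411 to 5908 CPM in vehicle libraries and to 5492, 5265 and 4940 CPM in AVE0991 replicates 1, 2 and 3. Snap25, Tubb3 and Stmn2 were highest in AVE0991 replicate 2, at 1082, 418 and 238 CPM. Syt1 and Syp were lowest there, at 412 and 839 CPM, and the rest lay between. Relative to the vehicle mean, the median log2 CPM of the list was -0.03, 0.14 and -0.16 in AVE0991 replicates 1, 2 and 3. The mean log2 CPM of the triplet minus that of the neuron markers was -1.83, -1.41 and -0.96 in vehicle replicates 1, 2 and 3. It was -1.53, 0.11 and -1.63 in AVE0991 replicates 1, 2 and 3, with a difference of group means of 0.39. Without AVE0991 replicate 2 that difference was -0.18. The library with the high triplet was also the one with the high hindbrain list, which was chosen after the values were seen. In this library 7 forebrain excitatory neuron markers summed to 987 CPM, against 2835 to 5036 CPM in the other 5 libraries. Mature oligodendrocyte markers were highest in it too, at 11952 CPM against 3704 to 8041 CPM. The parts of these in the neurofilament values were not tested.

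Genes most like the triplet by the same measure included Rimkla, Vamp1 and Rassf4 for Nefh (0.06, 0.15 and 0.20, with a median over candidates of 0.90) and Rassf4, Acan and Rimkla for Nefm (0.16 each, median 0.77). Vamp1, a synaptic vesicle SNARE protein, stood at 97.2, 216 and 298 CPM in vehicle libraries and at 688 CPM in AVE0991 replicate 2, and its 6 libraries were in the same order as for Nefh. Acan, the core protein of perineuronal nets, stood at 29.3 CPM in AVE0991 replicate 2 and at 4.74 to 8.65 CPM elsewhere. Nefl was most like Rassf5, Adam23 and Atp8a2 (0.08 to 0.09), and Ina most like Clcn6 and Vangl2 (0.04 and 0.05). Synm was most like Vsnl1 (0.05), Tigar (0.07) and Sema5a (0.07), and Nes most like Atp7a, Arid5b and Slc16a1 (0.10 each). These likenesses rest on 6 libraries and were picked from 9747 genes.

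Microtubule and axon skeleton genes encode the other fibres and the membrane skeleton of the axon. Of 22 genes 0 passed edgeR's adjusted test, and 1 was higher at an unadjusted edgeR p under 0.05, where 10.9% of all genes were. DESeq2 and limma-voom called 0, and the median log2 fold change was 0.06 (range -0.45 to 0.38). Sptan1, the alpha spectrin of the membrane skeleton, had group means of 1164 CPM for vehicle and 1429 CPM for AVE0991 (0.30, SE 0.12, edgeR adjusted p = 0.211). Ank2 (0.38), Stmn4 (-0.45) and Stmn1 (-0.33), which encode an ankyrin and stathmin family regulators of microtubules, did not pass either. The summed level of the list was highest in AVE0991 replicate 2, at 18901 CPM against 14776 to 16275 CPM in the other 5 libraries.

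Genes for linkers, kinases, chaperones and turnover of filaments gave 0 of 22 calls by edgeR and 0 by limma-voom, with a median of 0.08. At an unadjusted edgeR p under 0.05, 1 was higher and 1 lower, beside 23.6% of all genes in either direction. DESeq2 called 0 higher and 1 lower, where it called 12.5% of all genes in either direction. Among the genes with values above 0, Capn2, a calpain protease, had a log2 fold change of 0.31 (SE 0.12) and Hspb1, a small heat shock protein, one of 0.56 (SE 0.26), with edgeR adjusted p of 0.187 and 0.238.

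Lmna, the member found in most cell types, was the least variable of the 9 over the 6 libraries. It stood at 42.5, 49.4 and 44.7 CPM in vehicle libraries and at 48.7, 50.2 and 44.8 CPM in AVE0991 libraries, with a highest to lowest ratio of 1.18. Its log2 fold change was 0.07 (SE 0.10, 95% interval -0.16 to 0.31, edgeR adjusted p = 0.691) and -0.06 after the GC correction. Other genes of the lamina and nuclear envelope leaned higher: 18 of 19 lay above 0, with a median of 0.29, 0 passed edgeR's adjusted test and 8 were higher at an unadjusted p under 0.05, where 10.9% of all genes were. DESeq2 called Sun2, Syne4 and Icmt higher, where it called 5.39% of all genes higher, and limma-voom called 0. Sun2, which spans the inner nuclear membrane and binds lamins, stood at 53.1, 65.8 and 68.7 CPM in vehicle and at 78.2, 111 and 85.4 CPM in AVE0991 libraries (0.55, SE 0.17, edgeR adjusted p = 0.131). Icmt, a methyltransferase that acts on prenylated proteins such as prelamin A, stood at 77.4 to 79.8 CPM in vehicle libraries. In AVE0991 replicates 1, 2 and 3 it stood at 85.1, 196 and 239 CPM, the 2 high values being in the libraries with high cerebellar markers. Lmnb2, a B-type lamin, stood at 22.6, 33.0 and 30.8 CPM in AVE0991 libraries against 18.4 to 22.1 CPM in vehicle libraries (0.49, adjusted p = 0.147). By library, the median log2 CPM of the list exceeded vehicle by 0.12 in AVE0991 replicate 1, 0.48 in replicate 2 and 0.29 in replicate 3. Genes most like Lmna were Txnrd2, Med19 and Tsn, at 0.02 to 0.03 with a median over candidates of 0.20.

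Of 23 further intermediate filament genes 20 were tested. By edgeR 0 passed. At an unadjusted edgeR p under 0.05, 3 were higher (10.9% of all genes were) and 1 lower, beside 23.6% of all genes in either direction. The higher genes included B-type lamins, which were also counted in the list of the lamina and nuclear envelope above. DESeq2 and limma-voom called 0, and the median log2 fold change was -0.12 with 9 of 20 above 0. Prph, the filament protein of peripheral and some brainstem neurons, stood at 13.2 CPM in AVE0991 replicate 2 and at 1.93 to 4.2 CPM in the other 5 libraries. It was named after its values were seen. Iffo2 (0.55, SE 0.21) and Krt80 (-0.71, SE 0.24) had edgeR adjusted p of 0.182 and 0.148. Des, the filament protein of muscle and mural cells, stood at 1.26 and 1.69 CPM on average, and Krt8 and Krt18, the simple epithelial keratins, at 1.03 to 2.47 CPM in group means.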

How the data were processed

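RNA of 6 libraries was analysed; per the labels' protocols Trizol was used for extraction, ribosomal RNA was removed, and dUTP was used in the second strand. HISAT and mm9 are the aligner and build named, per the submitters' processing notes; versions, annotation, counter and strand setting were not given in the sources used here. Estimated counts and length-scaled values were deposited by the authors per gene row and library without pooling; the latter behave as FPKM, a unit read from the deposited values and not from a header. They also deposited a table of log2 fold changes with p-values and q-values that its headers credit to DESeq2; the signs of its fold changes showed that they are AVE0991 over vehicle. The 54 counts of the 9 genes were whole as deposited, from 210 to 27144.

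The members and gene lists were chosen with earlier results of these data known. Estimated counts of the 36210 gene rows were rounded and fitted in R 4.3.3 with edgeR 4.0.16 (filterByExpr, TMM, robust quasi-likelihood F test, no covariates), with Benjamini-Hochberg adjustment over 20363 genes and calls at an adjusted p under 0.05. SEs were the absolute log2 fold change divided by the root of the F statistic. TMM-scaled library sizes went into CPM, with a prior count of 2 for log2 CPM. Alternatives used DESeq2 1.42.0, limma 3.58.1 (voom, and log2(FPKM + 0.1)), other normalization and filtering, a replicate block, a GC correction from GENCODE M21 transcripts, which matched 16864 of the genes, and libraries left out. Named genes were the 9 members, up to 4 per list by smallest p, and the 3 most like each member with a mean of at least 10 CPM. Des, Krt8, Krt18, Prph and the neuron and oligodendrocyte markers described by gene were named after their values were seen. Other genes were named only as list contents or by a call. No pair of libraries was as close as counting error allows (chi-square per gene of at least 16.4), so each of the 6 was kept. Circular RNA rows, 11824 in number, were not used here. Some genes that the naming rule selects are not reported here.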

Additional observations from a re-analysis of the deposited data

How the results depend on the processing

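The count of called genes over all genes, 176, moved with most settings: it was 437 without a filter on low counts (58 higher, 379 lower), 2347 by DESeq2 (1012 higher, 1335 lower), 294 by limma on FPKM, 1 after the GC correction, and 0 to 2381 with 1 library left out, the high end (1386 higher, 995 lower) without AVE0991 replicate 1 and 0 without any other. The labels do not say whether libraries with the same replicate number share a batch or animal. Deviations of same-numbered libraries from their group means correlated at -0.02, 0.09 and -0.35. With 3 libraries per mean, these values cannot show whether the libraries were paired. With a replicate block the count was 0, also 0 together with the GC correction, and no member was called in either. It was 0 without AVE0991 replicates 2 and 3, a fit added after the data were seen, in which the lone AVE0991 library is assumed to vary like the vehicle libraries. The settings with 0 calls still had 2545 to 3937 genes at an unadjusted edgeR p under 0.05. Of the members, 1 was called by DESeq2 and 0 to 1 with 1 library left out; the gene was Vim, and the library AVE0991 replicate 1.

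Gfap and Synm kept their direction in all 15 alternatives, at 0.21 to 0.49 and -0.32 to -0.04, and so did Vim, at 0.16 to 2.00. With 1 library left out Nes ran from -0.28 to 0.18, Nefl from -0.25 to 0.36, Nefm from -0.33 to 1.05, Nefh from -0.30 to 1.28 and Ina from -0.052 to 0.40. Without AVE0991 replicates 2 and 3, Nefl stood at -0.15, Nefm at -0.18, Nefh at -0.32 and Ina at -0.071. By limma on FPKM Nefl stood at -0.0013 and Lmna at -0.025, and Lmna at -0.058 after the GC correction with or without the replicate block. Gfap relative to astrocyte markers ran from -0.32 to 0.032 with 1 library left out and was 0.21 without AVE0991 replicates 2 and 3. The triplet relative to neuron markers ran from -0.18 to 0.69 and was -0.12 in that fit. The cause of these changes was not tested.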
